A study of Schizosaccharomyces pombe with 3 samples.

Results

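The mating-type region of fission yeast, Schizosaccharomyces pombe, was represented on the array by 2 sets of tiles on a grid of 300 bp, in which some tiles are missing. All 110 genome probes whose names begin with mat made up a separate contig, from position 1 to 41400. A further 198 probes covered 60 kb of chromosome II, from 15.9 kb left of the tile at 2115901 to 21.3 kb right of 2138700, which hold the copy in the chromosome sequence. These 308 of the 41551 genome probes were chosen by name and position alone, and no measured value entered the choice.

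Fission yeast carries an expressed mating-type cassette and silent cassettes that serve as donors when the cell switches mating type. The silent cassettes lie in heterochromatin, which depends on methylation of lysine 9 of histone H3 by Clr4 and on Swi6, the protein that reads the mark, and inverted repeats border this domain. Psc3 is a subunit of cohesin, the complex that holds sister chromatids together, and is known to associate with Swi6.

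Psc3 tagged with GFP was mapped by chromatin immunoprecipitation on 2-colour tiling arrays, with ChIP DNA in Cy5 and input DNA of whole-cell extract in Cy3. Wild-type cells, with mat1Msmto at the mating-type locus, the alleles leu1-32 and ade6-216 and the tag Psc3-GFP::kanMX, grew in rich medium at 30 °C. The clr4d cells, whose label gives no allele but clr4d, grew at the same temperature. The cdc10-v50 cells, labelled with that allele alone, were arrested in G1 by 4 h at 35 °C after growth at 26 °C, and Cdc10 is part of a transcription factor that starts S phase. Their allele, their temperature and their stage in the cycle cannot be told apart. The labels used here do not say how the mating-type locus of the mutants is configured. All cells were fixed with paraformaldehyde and dimethyl adipimidate. Each group has 1 array, so replicate errors and p-values cannot be given, and every SD is a spread between probes.

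The array of wild type was scanned with an upper limit of 65526 intensity units, and those of clr4d and cdc10-v50 with limits of 777470 and 777453. The Cy5 signal of wild type reached its limit at 58 of 110 contig probes and at 41 of 198 chromosome II probes, against 5.47% of all probes. Neither mutant had a saturated probe. Where a probe is saturated, wild type has only a lower bound, a fall below it is a minimum and a rise above it is an upper limit. Scan and genotype cannot be told apart whenever a mutant is set against wild type, whereas clr4d and cdc10-v50 can be compared without saturation. Spots marked non-uniform by the scanner software were left out. In wild type these were 5 contig and 3 chromosome II tiles, in cdc10-v50 they were 6 and 7, and clr4d had 0. The software's quality summary asked for evaluation of the cdc10-v50 array. One tile, 2117101 to 2117400, was not well above background on any of the 3 arrays.

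The tile names divide both sequences. On the contig, 60 names end in f, at 4201 to 22800 and at 35101 to 41400, and the 38 tiles between them are unmarked. On chromosome II, 25 tiles carry the f, 20 of which form 4 blocks: block 1 at 2115901 to 2117100, block 2 at 2131201 to 2133000, block 3 at 2134501 to 2135700 and block 4 at 2136901 to 2138700. The sources used here give neither the meaning of the mark nor the build of the array, and array positions could not be read in the reference assembly ASM294v3: input signal followed the GC content of the reference best 2000 bp to 2100 bp to the left of the array position (r from 0.43 to 0.56 at the best shift, and from -0.03 to 0.03 at 0 bp). No gene was therefore given a value, and the reference was read for its own layout only.

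The reference held 2 pairs of repeats in this stretch, in the order in which the array has its blocks. A direct repeat of 1334 aligned bp (99.850% identity) holds mat1-Mi and mat1-Mc in its first copy and mat3-Mi and mat3-Mc in its second. An inverted repeat of 2112 aligned bp (99.337% identity) lies on either side of the second copy, with rpp202 as the nearest coding gene outside on the left and emc3 outside on the right. Distances from the first repeat to the others were 15111, 18367 and 20918 bp in the reference and 15300, 18600 and 21000 bp from block 1 to blocks 2, 3 and 4 on the array. The 3 distances thus differed by 82 to 233 bp, less than the 300 bp between tiles. The comparison was devised after the values had been seen.

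In wild type and in cdc10-v50, Psc3 was high over 1 long stretch of the contig, and in clr4d no such stretch was found. The median centred log2 ratio of ChIP over input on the contig was 2.31 for cdc10-v50 (SD 1.75, 104 probes), at least 1.28 for wild type (SD 1.07, 105 probes) and 0.05 for clr4d (SD 0.47, 110 probes). In steps of 2 kb, 12 of 20 contig steps reached a log2 ratio of 1, a 2-fold enrichment, in wild type, against 8.72% of all steps of that array. In clr4d the count was 0 of 20, against 5.62%, and at that share 0 of 20 does not set the contig apart. In cdc10-v50 it was 12 of 20, against 8.82%. With the tiles saturated in wild type left out, 4 of 12 contig steps reached 1 in wild type and 4 of 11 in cdc10-v50. The contig median was then 0.78 in wild type (SD 0.90, 52 probes), 0.92 in cdc10-v50 (SD 1.09, 50 probes) and -0.09 in clr4d (SD 0.50, 52 probes). This filter follows the wild-type signal and takes out 30 of the 33 usable wild-type tiles of the unmarked middle. The share of all steps under it was not computed.

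The domain was bounded where the mean of 5 neighbouring tiles crossed 1. On the contig it ran from 17701 to 40200 in wild type (22.5 kb) and from 18001 to 40800 in cdc10-v50 (22.8 kb), so both edges lay within 2 tiles of each other in these arrays. The left edge was gradual in wild type: the tile outside was at 1.02 and the second tile inside at 1.14. At the right edge the ratio of wild type fell from 2.52 on the tile at 39301 to 0.59 on the next tile, 39601. In cdc10-v50 the same tiles read 2.79 and 1.71, and the ratio reached 0.90 at 40501. The clr4d ratio went the other way, from -0.45 to 0.85, and the input was low at 39601 on all 3 arrays (-1.49, -2.66 and -1.53). The contig has no probe from 36001 to 38100, inside the domain, so that 1 of its 21 steps has no value.

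**Figure D1:**
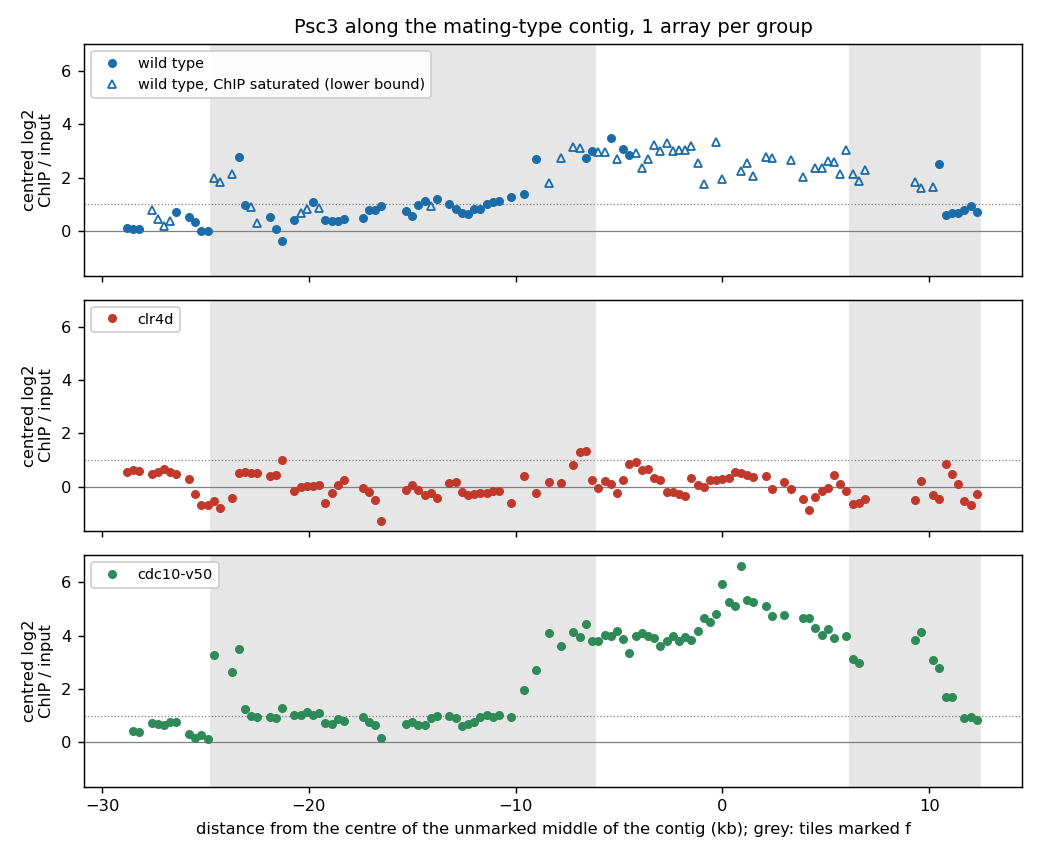
Centred log2 ratio of ChIP over input at each contig tile, against distance in kb from the centre of the unmarked middle, in 1 panel per group (wild type, clr4d, cdc10-v50; 1 array each). Open triangles are saturated wild-type tiles and so lower bounds, the dotted line is a log2 ratio of 1, and grey shows tiles marked f; the middle stands at a median of 4.12 in cdc10-v50 and 0.19 in clr4d.

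The unmarked middle, 22801 to 35100, held the highest single tile of cdc10-v50 on both sequences. All 33 usable wild-type tiles there were at 1.78 or more, with a median of at least 2.75 (SD 0.43, 30 of 33 saturated). All 36 usable cdc10-v50 tiles were at 3.35 or more (median 4.12, SD 0.69). All 38 clr4d tiles lay between -0.88 and 0.93 (median 0.19, SD 0.38). No clr4d tile of the middle reached the lowest value of either other array, whereas the values of wild type (up to 3.51) and cdc10-v50 overlapped as scanned. The median of clr4d minus wild type was -2.74 (SD 0.56), at least 6.70-fold lower, and 33 of 33 tiles were below 0, where 52.2% of all probes were below 0. By channel, this difference had a median of -1.47 in Cy5, a minimum fall where wild type was saturated, and 1.29 in the input. The ratio difference thus holds a lower Cy5 signal and a higher input in clr4d. Between the unsaturated arrays the median of clr4d minus cdc10-v50 was -4.23 (SD 0.75, 36 of 36 tiles below 0, against 53.7% of all probes), an 18.8-fold difference.

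The profile of cdc10-v50 had a summit inside the middle that the saturated scan of wild type could not show. The highest step was 28001 to 30000, with a mean of 5.38 (SD 0.78, 6 tiles), and the next was 30001 to 32000 with 5.05 (SD 0.29, 5 tiles). The highest single tile, 29701 to 30000, read 6.63 in cdc10-v50, 0.49 in clr4d and at least 2.25 in wild type. Outside these 2 steps the middle was flatter: the steps from 22001 to 28000 read 4.04, 3.83 and 4.02 in cdc10-v50, and the one at 32001 read 4.37. The steps of wild type cannot be ranked here: 22001 to 24000 read 2.99 (SD 0.28, 6 tiles, 3 saturated), and 26001 to 28000, saturated at 7 of 7 tiles, read at least 2.85.

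The channels taken alone differ from the ratio at this summit. Over the middle, the input relative to its own array's median was -1.04 in wild type (SD 0.49), -0.79 in cdc10-v50 (SD 0.48) and 0.29 in clr4d (SD 1.30). In the steps 28001 to 30000 and 30001 to 32000 the input of clr4d reached 1.73 and 1.99, while that of wild type was -0.77 and -0.78 and that of cdc10-v50 -1.02 and -0.51. The Cy5 channel of clr4d was also high there, at 2.09 and 2.24, and the ratio of the 2 channels came to 0.36 and 0.25. In cdc10-v50 the Cy5 channel was at 4.28 and 4.46, above clr4d, and wild type was saturated at 6 and 5 tiles of these steps. Relative to its own array, clr4d thus had a high ChIP signal and a high input signal in both steps. Against cdc10-v50 its Cy5 signal was lower, with mean differences of -2.19 and -2.22. Wild type gives only a lower bound for the ChIP signal there. The part of the input in the ratio differences was not tested. Over the whole middle the median of clr4d minus cdc10-v50 in the Cy5 channel alone was -2.78.

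**Figure D2:**
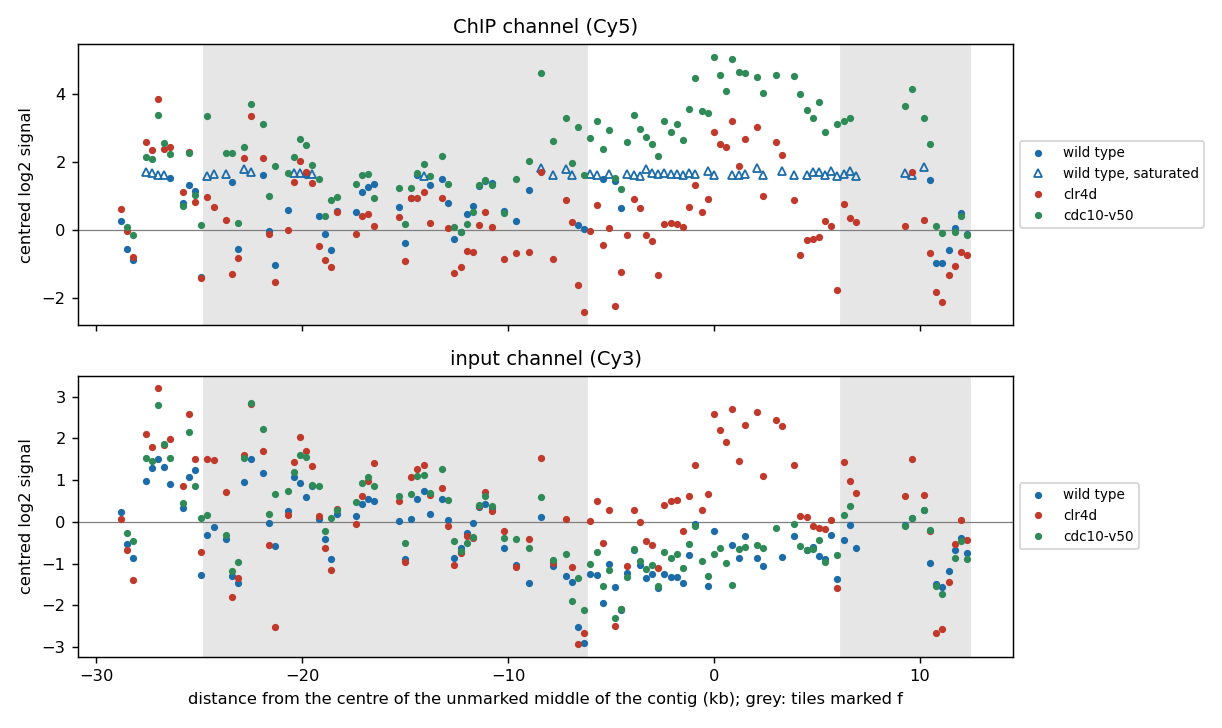
Centred log2 signal of the ChIP channel (upper panel) and the input channel (lower panel) at each contig tile, against distance in kb from the centre of the unmarked middle, for the 3 arrays; grey shows tiles marked f. Saturated wild-type tiles (open triangles) form a flat ceiling, and the clr4d input rises to step means of 1.73 and 1.99 just right of the centre, where the inputs of wild type and cdc10-v50 lie below 0.

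Input stood at least 1 from the channel median in several other contig steps. In wild type these were 3 of 20 steps, those from 22001 to 28000, at -1.82, -1.32 and -1.11, where 4.88% of all steps were as low. In cdc10-v50 the first 2 of them read -1.32 and -1.35, beside the -1.02 of the step at 28001, so 3 of 20 steps, against 6.25% of all steps, were at -1 or less. In clr4d the step 2001 to 4000 had an input of 1.33, so that with both summit steps 3 of 20 reached 1, against 5.32% of all steps. In cdc10-v50 3 of 20 steps, at 1, 2001 and 6001, reached 1 (1.01, 1.16 and 1.49), against 3.59% of all steps. In the step at 22001, with 3 of 6 tiles saturated, the wild-type Cy5 signal was at least 1.09 above its median and the ratio at least 2.99. The low input of -1.82 enters that ratio beside the Cy5 signal, and why it was low was not tested.

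The left part of the contig had a second, short enriched stretch. It ran from 4201 to 6300 in wild type (2.1 kb) and from 3901 to 9300 in cdc10-v50 (5.4 kb). By the offset given below, its tiles at 4501 and 5101 pair with tiles of block 1 on chromosome II. Block 1 matches, by order and spacing, a repeat whose other copy matches block 3 (99.850% identity). DNA of that copy may hybridise to these tiles, and the signals cannot be told apart here. The step 4001 to 6000 had a mean of 1.95 in wild type (SD 0.65, 5 tiles, 3 saturated) and 2.66 in cdc10-v50 (SD 1.02, 4 tiles), against -0.15 in clr4d (SD 0.63, 5 tiles). The edge was sharp: the tile at 3901 read 0.13 in cdc10-v50, -0.01 in wild type and -0.70 in clr4d, and the next tile, 4201, read 3.26, at least 1.98 and -0.54. The step at 6001 read 1.01 in cdc10-v50 and 0.28 in wild type, with inputs of 1.49 and 0.61. From 8001 to 18000 wild type stayed between 0.52 and 1.02, cdc10-v50 between 0.56 and 0.96 and clr4d between -0.47 and 0.01.

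On the chromosome II interval, too, clr4d had the lowest median. It was 0.80 in cdc10-v50 (SD 1.12, 191 probes), 0.67 in wild type (SD 0.76, 195 probes) and -0.13 in clr4d (SD 0.56, 198 probes). Steps at 1 or more numbered 10 of 30 in cdc10-v50, 8 of 30 in wild type and 0 of 30 in clr4d, against 8.82%, 8.72% and 5.62% of all steps; at the last share, 0 of 30 does not set the interval apart. The main domain ran from 2126101 to 2139300 in wild type (13.2 kb) and from 2129701 to 2140200 in cdc10-v50 (10.5 kb), and clr4d had none. The left edge of wild type lay in a slope, with 1.04 on either side of it. At thresholds of 1.5 and 0.5 in place of 1, the wild-type domain was 8.4 kb and 28.5 kb long, and that of cdc10-v50 was 34.8 kb at 0.5.

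**Figure D3:**
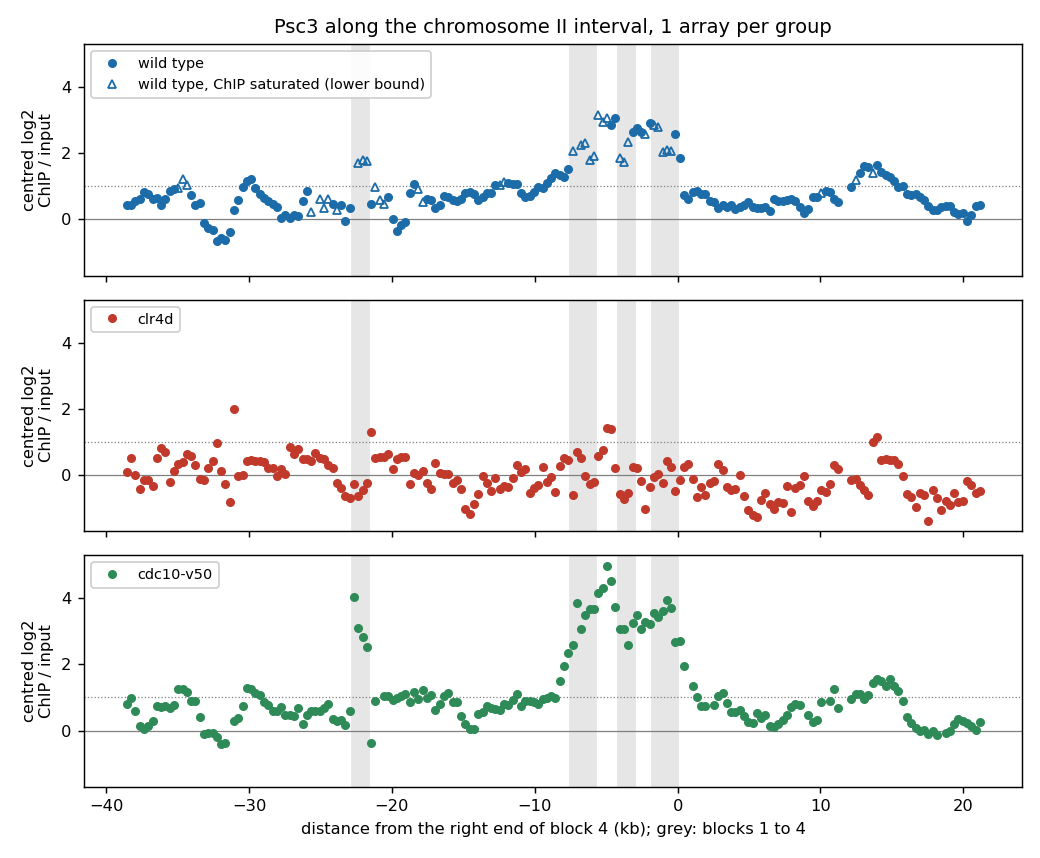
Centred log2 ratio of ChIP over input at each tile of the chromosome II interval, against distance in kb from the right end of block 4, in 1 panel per group (1 array each). Grey marks blocks 1 to 4, open triangles are saturated wild-type tiles (lower bounds), and the dotted line is a log2 ratio of 1; in wild type and cdc10-v50 the high tiles lie over block 1 and over blocks 2 to 4.

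From block 2 to block 4 every usable tile of wild type and cdc10-v50 was above 1. Over all genome probes, 3877 of 41489 reached 1 in wild type and 3889 of 40336 in cdc10-v50. The 24 wild-type tiles ranged from 1.73 to 3.15 (median at least 2.58, SD 0.45, 17 saturated). The 25 cdc10-v50 tiles ranged from 2.58 to 4.99 (median 3.51, SD 0.58). The 25 clr4d tiles ranged from -1.03 to 1.42 (median -0.03, SD 0.61). Values of clr4d lay below all values of both other arrays. The median of clr4d minus cdc10-v50 was -3.53 (SD 0.36, 25 of 25 below 0, against 53.7% of all probes), an 11.6-fold difference. That of clr4d minus wild type was -2.43 (SD 0.54, 24 of 24 below 0, against 52.2% of all probes). In Cy5 alone the medians were -2.98 against cdc10-v50 and -1.88 against wild type, the latter a minimum fall where wild type was saturated. In the input they were 0.45 and 0.52.

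Of the segments set by the marks, the 5 tiles between blocks 2 and 3 had the highest median in clr4d (0.76) and cdc10-v50 (4.33); wild type, at 3.06 or more, cannot be ranked because of saturation. They ranged from 2.87 to 3.15 in wild type, from 0.21 to 1.42 in clr4d and from 3.74 to 4.99 in cdc10-v50. The tiles at 2133601 and 2133901 were the only ones of blocks 2 to 4 that reached 1 in clr4d, with 1.42 and 1.39. In the contig the tiles at 21901 and 22201 were the highest of clr4d, with 1.32 each. The clr4d inputs of these tiles were low, -1.08 and -2.93 on the contig and -1.06 and -2.18 on chromosome II. The highest clr4d tile of the interval, at 2107501, read 1.99 with an input of -0.98, while wild type and cdc10-v50 read 0.29 there and the clr4d tiles on either side read -0.83 and -0.04.

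Blocks 2 and 4, and blocks 1 and 3, were compared because their order and spacing match the copies of one repeat each; that match is the only basis. Over blocks 2 and 4 the medians were 3.59 and 3.58 in cdc10-v50, at least 2.06 and 2.35 in wild type, and -0.13 and -0.02 in clr4d. Over blocks 1 and 3 they were, in the same order of groups, 2.97 and 3.08, at least 1.78 and 2.10, and -0.37 and -0.56. In cdc10-v50 the medians of matched blocks differed by less than the SD between the tiles of either block, and so did those of blocks 2 and 4 in clr4d. Those of blocks 1 and 3 in clr4d lay further apart than the SD of block 1 (0.18, 4 tiles) and closer than that of block 3 (0.44). The values of wild type do not bear on this, since 3 of 3 and 5 of 5 usable tiles of blocks 1 and 2 were saturated, and 3 of 4 and 5 of 6 of blocks 3 and 4. DNA from 1 copy may hybridise to the tiles of the other, and signals of near-identical copies cannot be told apart here. Block 1 stood above the tiles on either side in wild type and cdc10-v50, but not in clr4d. Its 4 tiles ranged from 2.53 to 4.03 in cdc10-v50, and the tile before it, at 2115601, read 0.34 in wild type and 0.60 in cdc10-v50. The step 2114001 to 2116000 includes 1 tile of block 1 and so has an SD of 1.38 in cdc10-v50. To the right, the enriched stretch of cdc10-v50 went on past block 1: it ran from 2115301 to 2121000 (5.7 kb, mean 1.34). No stretch was called there in wild type or clr4d. In wild type the 3 usable tiles of block 1 nevertheless read at least 1.69 to 1.80, and the step 2116001 to 2118000 at least 1.22. A stretch needed 5 probes, and the tile at 2115901 was left out as non-uniform. The call therefore does not set wild type apart from cdc10-v50 at block 1. The step 2118001 to 2120000 read 1.01 in cdc10-v50, 0.20 in wild type and 0.38 in clr4d.

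Past block 4 the ratio fell within a few tiles. In wild type the tiles at 2138401, 2138701 and 2139001 read 2.58, 1.85 and 0.74. In cdc10-v50 they read 2.68, 2.72 and 1.94, and 1.03 was reached at 2139901. The last step of the domain, 2138001 to 2140000, averaged 1.37 in wild type (SD 0.79, 7 tiles), -0.09 in clr4d (SD 0.38, 7 tiles) and 2.23 in cdc10-v50 (SD 0.99, 6 tiles). On the left, cdc10-v50 rose from 0.99 on the tile at 2130001 to 2.34 at 2130901, ahead of block 2, where wild type went from 1.41 to 1.54.

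Outside the blocks the ratio of clr4d was lower than that of wild type in the right flank and between blocks 1 and 2. In the right flank, from 2138701 on, the medians of wild type and cdc10-v50 were 0.56 (SD 0.41) and 0.55 (SD 0.56), and that of clr4d was -0.47 (SD 0.52). All 69 tiles were lower in clr4d than in wild type (median -1.05, SD 0.49), and 3 of these were saturated in wild type. For cdc10-v50 minus wild type the median was 0.00, with 32 of 64 tiles above 0, against 53% of all probes. Between blocks 1 and 2 clr4d minus wild type had a median of -0.92 (SD 0.69, 40 of 47 tiles below 0). In the left flank it was -0.34 (SD 0.63, 37 of 52 tiles below 0). Over all genome probes the median was -0.03, with 52.2% below 0. The left end of the contig, 1 to 4200, was near these values, at -0.07 (SD 0.48, 6 of 12 tiles below 0).

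Chromosome II steps with an input of -1 or less numbered 3 of 30 in wild type, 2 of 30 in clr4d and 3 of 30 in cdc10-v50, against 4.88%, 10.1% and 6.25% of all steps. Those at 1 or more numbered 0, 2 and 2 of 30, against 1.36%, 5.32% and 3.59%. Input was low at 2106001 on all 3 arrays, at 2138001 in wild type and clr4d (-1.02 and -1.15) and at 2146001 in cdc10-v50 (-1.03). It was high at 2112001 and 2114001 in both mutants (1.43 and 1.34 in clr4d, 1.28 and 1.06 in cdc10-v50). The low step at 2116001, -1.27 in wild type and -1.22 in cdc10-v50, includes the tile that was not well above background.

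A separate peak lay in the right flank. It ran from 2151001 to 2154300 in wild type (3.3 kb) and from 2150701 to 2154300 in cdc10-v50 (3.6 kb), and its means were 1.37 and 1.27. The step 2150001 to 2152000 read 1.36 in wild type and 1.04 in cdc10-v50, against -0.33 in clr4d. The step 2152001 to 2154000 read 1.38, 1.47 and 0.66, and 0.66 was the highest clr4d step of both sequences. Within the peak the clr4d ratio changed from -0.61 on the tile at 2151901 to 1.00 on the next tile, as its Cy5 channel went from 0.26 to 1.71 and its input from 0.88 to 0.71.

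In counts of steps, clr4d was lower than wild type by 1 or more in 15 of 20 contig steps and 15 of 30 chromosome II steps, against 3.64% of all steps. It was higher by 1 or more in 0 of 20 and 0 of 30, against 1.05%. The largest recorded falls were 2.95 at 26001 to 28000 on the contig (SD 0.61) and 2.77 at 2136001 to 2138000 on chromosome II (SD 0.63); wild type was saturated at 7 and 5 tiles of these steps, so both are minimum values and their rank is not settled. The highest difference was 0.58 at 2106001 to 2108000 (SD 0.91), where the input was low on all 3 arrays (-1.22, -1.77 and -1.08) and wild type had its lowest step of the interval, -0.24. Against cdc10-v50, clr4d was lower by 1 or more in 15 of 20 and 15 of 30 steps, against 4.34% of all steps.

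**Figure D4:**
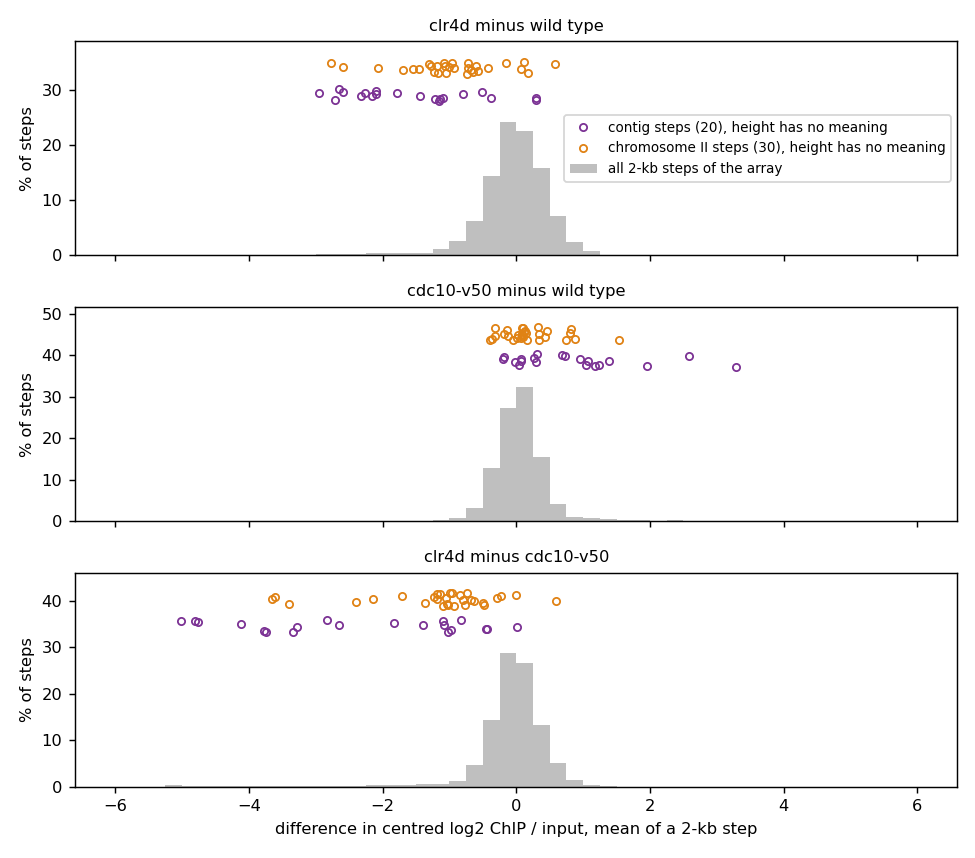
Differences in centred log2 ChIP over input between arrays, as means of 2-kb steps, for the 20 contig steps and the 30 chromosome II steps (circles, whose height has no meaning) and as the percentage of all 2-kb steps of the array per bin of 0.25 (grey bars, values past 6 placed in the last bin). The panels give clr4d minus wild type, cdc10-v50 minus wild type and clr4d minus cdc10-v50; contig circles reach -2.95, 3.28 and -5.02.

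For cdc10-v50 minus wild type, 8 of 20 contig steps and 1 of 30 chromosome II steps were at 1 or more, against 2.51% of all steps, and 0 of either were at -1 or less, against 0.463%. The largest was 3.28 at 28001 to 30000 (SD 1.59, 3 usable tiles), an upper limit because 6 wild-type tiles of that step were saturated. The chromosome II step was 2132001 to 2134000, at 1.54 (SD 0.36), with 6 tiles saturated. Where wild-type saturated tiles were left out, 0 of 11 contig steps and 0 of 27 chromosome II steps remained at 1 or more. The share of all steps under that filter was not computed. At the unfiltered share of 2.51%, such counts do not set either sequence apart. That filter is set by the wild-type signal itself. It takes out 30 of 33 usable wild-type tiles of the unmarked middle and 17 of 24 from block 2 to block 4. These counts therefore cannot decide whether the rise holds inside the domain. On the unsaturated tiles the median difference was 0.14 over the contig (SD 0.48, 50 tiles) and 0.10 over chromosome II (SD 0.43, 151 tiles). In the unmarked middle only 3 unsaturated tiles could be compared, with a median of 0.51 (SD 0.17). From block 2 to block 4, 7 unsaturated tiles had a median of 0.61 (SD 0.49).

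The contig and the chromosome II tiles were then set beside each other. An offset was chosen from the input channel alone: 2111500 bp for the contig left of the middle (mean Spearman rho over the 3 arrays 0.76, 59 probes) and 2099450 bp for the part right of it (0.80, 13 probes). The unmarked middle reached 0.40 at most and was not paired, so it had no clear counterpart in the interval. At these offsets the log2 ratios of paired tiles had a median absolute difference of 0.15 in wild type (69 pairs), 0.19 in clr4d (71 pairs) and 0.12 in cdc10-v50 (65 pairs). Differences stayed within 0.5 in 89.9%, 88.7% and 92.3% of pairs. The largest, 2.66 in cdc10-v50, was at the edge of the marked tile at 4201, which this offset pairs with the unmarked tile before block 1. The offsets were settled after values had been seen and 6 ways of setting them were tried, as given with the dependence on the processing. Tiles that share sequence may hybridise the same DNA, so paired tiles are not independent measurements.

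**Figure D5:**
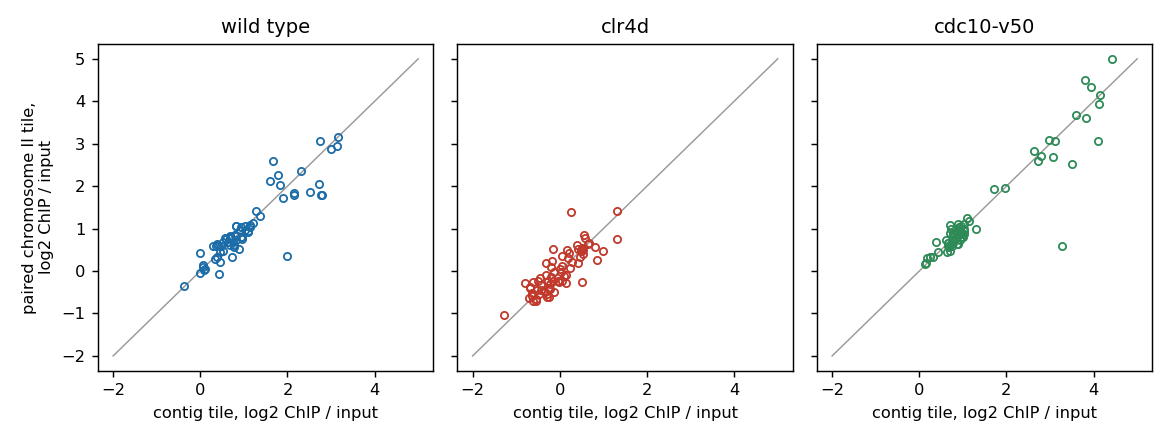
Log2 ratio of ChIP over input of each contig tile outside the middle (horizontal axis) and of its paired chromosome II tile (vertical axis), in 1 panel per group; the line marks equal values. Most pairs lie near the line, and the median absolute difference is 0.12 in cdc10-v50, 0.15 in wild type and 0.19 in clr4d.

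For comparison, the 436 probes of chromosomes I to III whose names end in m had medians of 0.53 in cdc10-v50, 0.27 in clr4d and 0.05 in wild type, with SDs of 2.31, 0.43 and 1.07. The Cy5 signal of wild type was saturated at 363 of 420 of them, so its median there cannot be ranked. Wild-type input was saturated at 311 of all genome probes and at 0 of those on the contig and the chromosome II interval. It was not counted among the 436, and a ratio with both channels saturated is not a lower bound. On these probes clr4d minus cdc10-v50 had a median of -0.45 (SD 2.21). The SD between probes was smallest in clr4d in both sets, with 0.47 on the contig against 1.07 in wild type and 1.75 in cdc10-v50. Over all genome probes clr4d also had the smallest SD, 0.69 against 0.71 in wild type and 0.83 in cdc10-v50. Saturation caps the high values of wild type, so its SDs are not comparable with those of the mutants.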

How the data were processed

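Psc3 ChIP DNA and input DNA were hybridised to 3 arrays, 1 per group. The labels gave the groups and the dyes, which were not swapped. Per the file headers, Agilent Feature Extraction versions 11.0.1.1 (wild type) and 11.5.1.1 (both mutants) made the deposited processed intensity of each channel by background subtraction, detrending and dye normalization. The deposited files also hold 0 or 1 flags and a log10 ratio of red over green. The deposited value table gives a log2 ratio equal to minus the scanner's on all 41551 probes (tolerance 0.001). Its medians are -0.17, 0.04 and 0.06, so it is not centred.

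The log2 ratio of processed red over green, and log2 of each channel, were centred on their median over genome probes, without loess or quantile steps. Left out were 1417 control spots and non-uniform spots (62, 9 and 1215 of all genome probes); saturated spots were kept. Median processed signals lay between 1156 and 1382 in Cy3 and between 1162 and 1649 in Cy5. Steps of 2 kb needed 3 probes; domains are runs of at least 5 probes joined across up to 2 kb. Functions were tested on simulated domains with abrupt edges, where edge errors of a few probes were accepted. Gradual edges near the threshold were not simulated. Alternatives included normexp (offset 50, limma 3.58.1 in R 4.3.3), run on median signals because these files have no mean-signal column. Python 3.11.15 and blastn 2.17.0 were used. No other per-sample columns were present (0). Precision is limited by the number of arrays.

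The members, lists and steps were chosen with earlier results of these data known. Steps named are those at the domain edges, the extremes of each group and difference, and those whose input stood 1 or more from the median; single tiles and the mark segments were chosen after values were seen. No gene was named from a position. The sequence of the repeats is not reported here.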

Additional observations from a re-analysis of the deposited data

How the results depend on the processing

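Of 399 values recomputed under an alternative, 363 stayed within the spread between probes or within 1.5 times the count, and 36 moved further. The spread over a whole sequence takes in domain and flank tiles. On the contig it was 1.75 for cdc10-v50 and 1.71 for clr4d minus cdc10-v50, so large shifts of these medians count as staying. The sign differed in 13, none of them from a value at 1 or more from 0: 3 were the contig median of clr4d (0.05, against -0.00 under normexp, -0.05 under loess and -0.09 without saturated probes), 1 was cdc10-v50 minus wild type on chromosome II (0.13, against -0.02 under normexp) and 9 were single channels of the mutants, of which the Cy5 median of clr4d on the contig (0.22, against -0.55 without saturated probes) changed most. With marked probes left out, the contig median of wild type was 2.57 and that of clr4d minus cdc10-v50 was -4.00. Contig steps past 1 then numbered 7 of 9 in wild type, 6 of 8 in cdc10-v50, 7 of 9 for clr4d below wild type, 4 of 8 for cdc10-v50 above it and 6 of 8 for clr4d below cdc10-v50; on chromosome II they numbered 5 of 29 in wild type and 1 in clr4d. With saturated probes left out, the contig Cy5 median of wild type was 0.58. The contig ratio median then went from 1.28 to 0.78 in wild type and from 2.31 to 0.92 in cdc10-v50, that of clr4d minus wild type from -1.63 to -0.96, and that of clr4d minus cdc10-v50 from -2.06 to -1.01, all by less than the SD between probes. Contig steps then numbered 4 of 12 in wild type, 4 of 11 in cdc10-v50, 6 of 12 for clr4d below wild type, 0 of 11 for cdc10-v50 above it and 7 of 11 for clr4d below cdc10-v50. On chromosome II they numbered 5 of 27 in wild type, 6 of 27 in cdc10-v50 and 0 of 27 for cdc10-v50 above wild type. Loess gave 5 contig steps for cdc10-v50 above wild type. Normexp gave 14 chromosome II steps in wild type and 2 for cdc10-v50 above it. Steps of 1 kb gave 1 of 59 in clr4d on chromosome II.

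At a threshold of 0.5, contig steps numbered 4 in clr4d and 19 in cdc10-v50, and chromosome II steps 22 in cdc10-v50, 19 in wild type and 3 in clr4d. The longest contig domains were then 39.6 kb in cdc10-v50, 39 kb in wild type and 3.9 kb in clr4d, and in the same order those of chromosome II 34.8, 28.5 and 1.8 kb. At a threshold of 1.5, chromosome II steps numbered 4 in wild type and 6 in cdc10-v50, and the wild-type domain there was 8.4 kb. The lengths of the domains thus follow the threshold. Leaving probes out lowers the number of steps that can be counted. Leaving out saturated probes takes away 30 of the 33 usable wild-type tiles of the unmarked middle, so those counts say little about the middle. Shares of all steps were not recomputed under the alternatives. Other causes were not tested.

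All 6 ways of setting the contig against chromosome II were tried after values had been seen. Median differences kept within the spread between pairs in all of them. The share of pairs within 0.5 fell to 82.6% (wild type), 80.3% (clr4d) and 80.0% (cdc10-v50) with pieces chosen by hand, which moved the right part to an offset of 2106700 bp. With marked tiles aligned, the shares were 88.2%, 90.1% and 92.3%. No paired analysis was possible because each group has 1 array.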
